A study of Mus musculus with 24 samples.

Results

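The transcripts described are those of 9 transcription factors that act in gut endoderm and its epithelium: Gata4, Gata5, Gata6, Foxa1, Foxa2, Foxa3, Hnf4a, Klf4 and Klf5. They were taken as all probe sets whose platform annotation named 1 of these symbols, which gave 12 probe sets for 9 genes (3 for Gata6, 2 for Klf4 and 1 for each of the others), out of 8252 genes named on the array. All 9 genes had at least 1 probe set that passed the filter on low signal described below, with 10 of the 12 probe sets tested. Total RNA came from whole pieces of 4 regions of the mouse digestive tract, namely corpus (stomach apart from its antrum), jejunum, descending colon and rectum. Each region was sampled from germ-free mice, which carry no microbes, and from conventional mice, which carry a microbiota, with 3 arrays in each of the 8 groups and 24 arrays in all. The labels give no strain, age, diet or other treatment, and no allele or agent besides the microbial state. Whether some arrays come from the same mouse is not given in the sources used here, and the p-values therefore reflect only how far these arrays scatter. Because whole tissue was measured, fewer cells of a type and less RNA per cell cannot be told apart.

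GATA4, GATA5 and GATA6 are zinc finger proteins that bind GATA sequences and take part in endoderm development; in the adult mouse gut GATA4 is known for keeping jejunal identity. FOXA1, FOXA2 and FOXA3 are forkhead proteins that can open compacted chromatin and act early in the formation of gut, liver and pancreas. HNF4A is a nuclear receptor of liver, kidney and intestinal epithelium that drives enterocyte genes. KLF4 and KLF5 are Krüppel-like zinc finger proteins of epithelia: KLF4 is known for differentiated and goblet cells, and KLF5 for dividing crypt cells.

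Values are the deposited signal intensities. A signal under 21.2, the 25th percentile of all values, counts as at the floor, and log2 differences were taken after raising such signals to 21.2. A probe set was tested when it exceeded 51.5 on at least 3 arrays, and a difference was called at a limma adjusted p under 0.05 over all 9033 probe sets tested. A signal of one probe set says nothing about its level relative to another probe set. The median signal of an array ran from 68.6 to 103.5.

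Summed markers of 3 libraries opposed their region labels. The library labelled germ-free corpus 3 had 1305.6 for gastric gland markers, 748.5 for squamous epithelium and 8886 for hindgut and colonocyte markers, whereas conventional corpus libraries had 36022.8 to 57354.9, 48740.6 to 57726.7 and 321.4 to 351.4 for the same sums. Across 9033 probe sets this library was closer to germ-free descending colon 3 than any other of the 276 pairs of arrays, with an SD of their log2 differences of 0.251 and r = 0.987, while pairs within a group had SDs of 0.362 to 1.23. The library labelled conventional jejunum 3 had 668.9 for enterocyte markers, against 29237.6 to 44345.9 in germ-free jejunum, together with 9736.6 for hindgut markers and the highest pancreas enzyme sum, 28017.6. The library labelled conventional rectum 1 had 21320.7 for enterocyte markers and 993.3 for hindgut markers. Gastric gland sums of 17241.1 in germ-free rectum 1 and 10503.8 in germ-free jejunum 3 were smaller departures. All arrays stayed in under their labels. Called differences of the factors, and counts over them and over gene lists, are also given on the 21 arrays without these 3 libraries. Marker counts beside them are on 24 arrays unless stated. The 3 libraries were picked by their region markers, so region differences on 21 arrays are not independent of that choice.

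**Figure D1:**
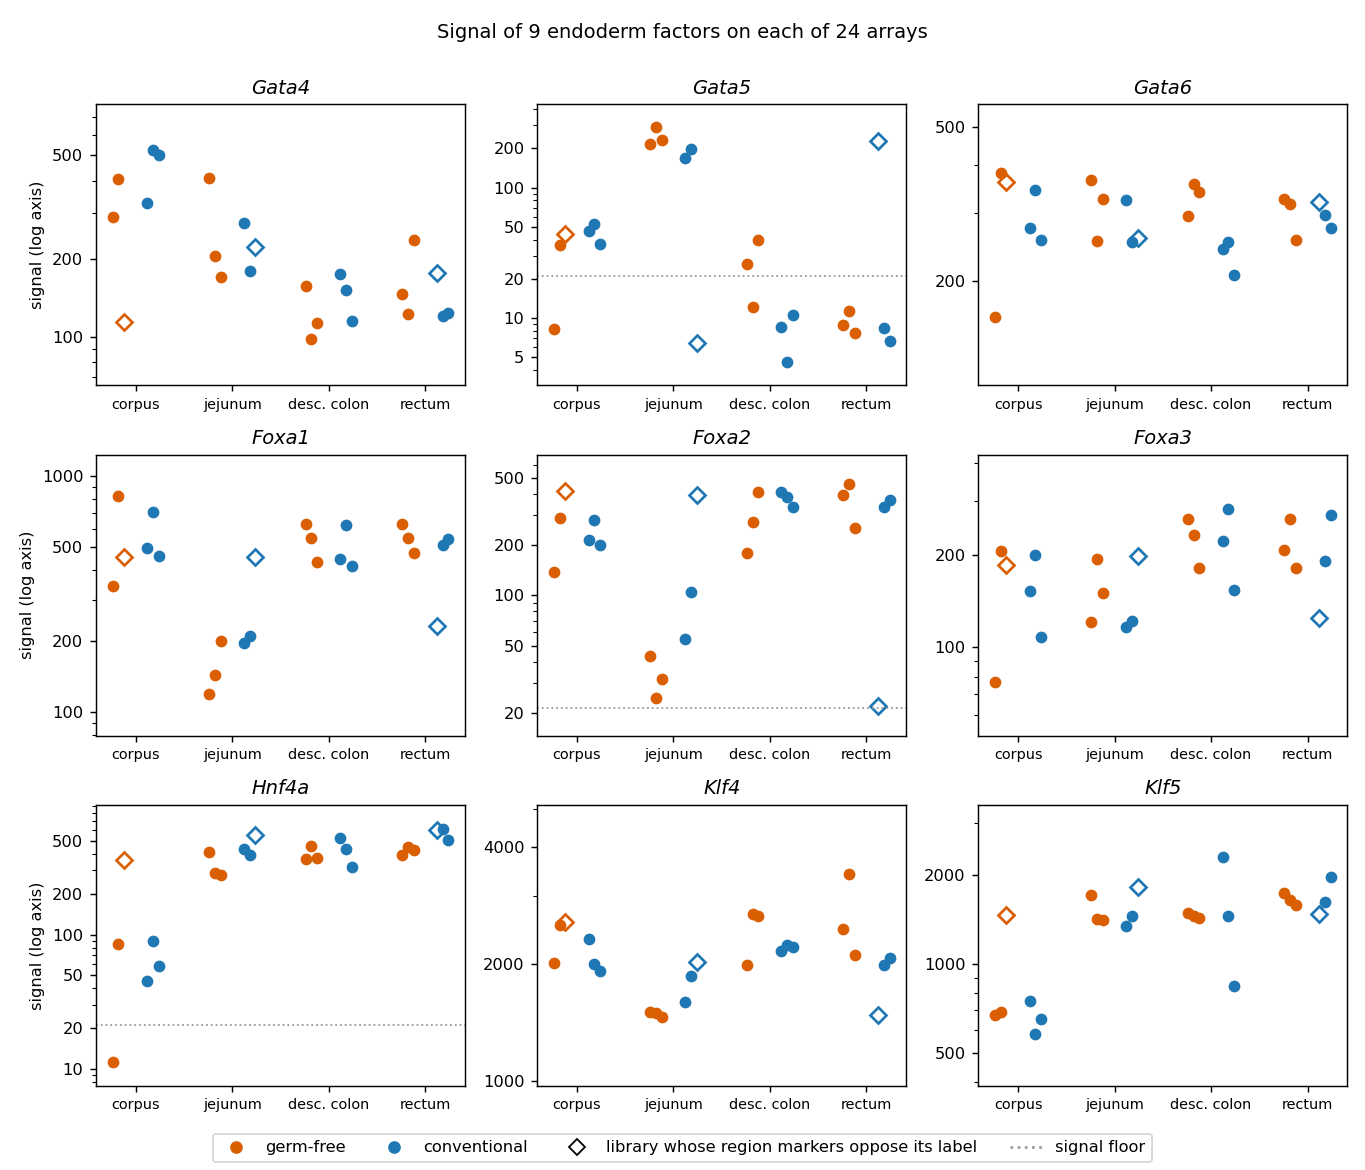
Deposited signal (log axis) of each of the 9 factors on every array, by region, with germ-free arrays (orange) left of conventional arrays (blue), open diamonds for the 3 libraries whose markers opposed their labels and a dotted line at the floor of 21.2. Gata5 stands high in the jejunum, Foxa1 and Foxa2 stand low there, and Hnf4a and Klf5 stand low in the corpus, with the open diamonds as the main exceptions.

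Gata5 was the member with its signal in the jejunum. In the jejunum Gata5 had signals of 215.0, 289.8 and 231.7 in germ-free mice, and 169.6, 196.6 and 6.5 in conventional mice. In the corpus Gata5 had 8.3, 36.7 and 44.1 in germ-free mice and 46.7, 52.8 and 37.0 in conventional mice. The jejunal signals thus stood above all corpus signals apart from the 6.5 of the library labelled conventional jejunum 3. In the descending colon Gata5 had 26.0, 12.1 and 39.8 in germ-free mice and 8.5, 4.6 and 10.6 in conventional mice. In the rectum Gata5 had 8.8, 11.4 and 7.7 in germ-free mice and 227.7, 8.4 and 6.7 in conventional mice, where the 227.7 belonged to the library labelled conventional rectum 1. Of the 12 hindgut libraries, 9 were at or under the floor. In the jejunum Gata5 exceeded its corpus level 3.85-fold on the floored scale (log2 difference 1.95 ± 0.52 SE, limma adjusted p = 0.00692). Without the 3 libraries it did so 5.95-fold (2.57 ± 0.22, limma adjusted p = 1.65e-08). Signals raised to the floor are equal and so add no scatter to the SE, which is shared by all groups. Gata5 was 6.05-fold lower in the descending colon than in the jejunum (log2 difference -2.60 ± 0.52, adjusted p = 0.00438; -3.11 ± 0.21 without the 3 libraries). The jejunum-corpus call was lost with a floor at the 10th percentile (1.89, adjusted p = 0.0813). Outside the jejunum only the 52.8 of conventional corpus 2 and the 227.7 of conventional rectum 1 exceeded the filter signal of 51.5. Gata5 thus passed the filter, which needs at least 3 such arrays, through its jejunal signals. With no filter on low signal, 6 factor probe sets were still called for jejunum minus corpus, and no factor call was lost. Of 9 enterocyte marker probe sets tested, 8 were higher in jejunum than corpus and 8 lower in the descending colon than in the jejunum; their part in the Gata5 differences was not tested.

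Gata4 had its highest signals in the corpus, then the jejunum. In the corpus Gata4 had 290.7, 406.3 and 113.8 in germ-free mice and 326.5, 523.5 and 500.8 in conventional mice, where the 113.8 was from the library labelled germ-free corpus 3. In the jejunum Gata4 had 409.7, 205.7 and 170.9 in germ-free mice and 275.7, 179.1 and 221.3 in conventional mice. The 2 regions overlapped. The descending colon gave Gata4 signals of 156.9, 97.9 and 113.1 in germ-free mice and 175.0, 151.9 and 115.4 in conventional mice. In the rectum Gata4 had 146.1, 122.2 and 235.3 in germ-free mice and 176.2, 120.8 and 123.9 in conventional mice. Without the 3 libraries every descending colon signal (97.9 to 175.0) lay under every corpus signal (290.7 to 523.5). Gata4 was lower in the descending colon than in the corpus (log2 difference -1.29 ± 0.28, adjusted p = 0.00246; -1.56 ± 0.24 and 4.68e-05 without the 3 libraries). The difference of jejunum minus corpus was -0.48 ± 0.28 (adjusted p = 0.207) with all arrays and was called without the 3 libraries (-0.74 ± 0.25, adjusted p = 0.0256). That of descending colon minus jejunum was -0.81 ± 0.28 (adjusted p = 0.0559) and was likewise called without them (-0.82 ± 0.24, adjusted p = 0.0175).

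Gata6 was even along the tract. Its main probe set ran over both states from 161.8 to 382.1 in the corpus, 252.4 to 365.3 in the jejunum, 207.4 to 356.9 in the descending colon and 255.4 to 326.4 in the rectum. The region medians lay between 273.4 and 309.35, and neighbouring regions overlapped. Its log2 differences between regions ran from -0.08 to 0.10 with SEs of 0.17, and none was called. Without the 3 libraries they ran from -0.11 to 0.16, again with none called. Another Gata6 probe set had signals of 6.6 to 56.8 and also had no called difference, with -0.62 ± 0.27 for jejunum minus corpus (adjusted p = 0.0846; -0.68 ± 0.31 and 0.0909 without the 3 libraries). The 2 tested Gata6 probe sets had r = 0.170 over the 24 arrays and 0.165 over 21. The remaining Gata6 probe set had 4.0 to 58.8 and was not tested; with no filter on low signal it had no called difference in any of the 10 comparisons.

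Foxa1 and Foxa2 shared a low in the jejunum. In the jejunum Foxa1 had 119.5, 144.3 and 199.7 in germ-free mice and 195.8, 210.2 and 453.1 in conventional mice. In the corpus Foxa1 had 344.2, 822.7 and 455.9 in germ-free mice and 496.0, 704.0 and 460.4 in conventional mice. The only jejunal signal inside the corpus range was the 453.1 of the library labelled conventional jejunum 3. In the descending colon Foxa1 had 629.5, 547.5 and 434.0 in germ-free mice and 445.7, 622.9 and 416.0 in conventional mice. In the rectum Foxa1 had 630.8, 546.9 and 472.3 in germ-free mice and 232.7, 509.5 and 542.0 in conventional mice, with the 232.7 from conventional rectum 1. Foxa1 was 2.62-fold lower in the jejunum than in the corpus (log2 difference -1.39 ± 0.25, adjusted p = 0.000301; -1.62 ± 0.22 without the 3 libraries). It was 2.54-fold higher in the descending colon than in the jejunum (1.35 ± 0.25, adjusted p = 0.00327; 1.54 ± 0.20 without them). Descending colon and corpus differed by -0.04 ± 0.25 (adjusted p = 0.935).

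Foxa2 also had its low in the jejunum, with a wider range. In the jejunum Foxa2 had 43.5, 24.5 and 31.7 in germ-free mice and 55.0, 104.2 and 396.1 in conventional mice. In the corpus Foxa2 had 136.9, 288.7 and 420.2 in germ-free mice and 213.7, 281.1 and 200.3 in conventional mice. Apart from the 396.1 of the library labelled conventional jejunum 3, all jejunal signals were below all corpus signals. Foxa2 in the descending colon had 177.9, 273.8 and 413.3 in germ-free mice and 411.5, 383.8 and 333.7 in conventional mice. In the rectum Foxa2 had 394.0, 457.4 and 250.1 in germ-free mice and 21.9, 334.0 and 369.7 in conventional mice, the 21.9 again from conventional rectum 1. Foxa2 was 3.71-fold lower in the jejunum than in the corpus (-1.89 ± 0.55, adjusted p = 0.012; -2.11 ± 0.27 without the 3 libraries). It was 4.90-fold higher in the descending colon than in the jejunum (2.29 ± 0.55, adjusted p = 0.0112; 2.69 ± 0.25 without them). Taken within each state without the 3 libraries, jejunum minus corpus was -2.62 in germ-free mice and -1.60 in conventional mice. Of 8 smooth muscle marker probe sets, 7 were lower in the jejunum than in the corpus and 6 higher in the descending colon than in the jejunum. Their summed signal was 7360 to 16102.7 in the jejunum and 18879.8 to 33752.7 in the corpus. Of 6 hindgut marker probe sets, 3 were higher in the descending colon than in the jejunum, and 5 without the 3 libraries. The part of either list in the Foxa1 and Foxa2 differences was not tested.

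Foxa3 had no called regional difference on all arrays. Over both states it ran from 77.0 to 205.3 in the corpus, 116.2 to 198.2 in the jejunum, 153.0 to 282.8 in the descending colon and 124.3 to 270.2 in the rectum, so every region overlapped its neighbours. Descending colon minus jejunum was 0.57 ± 0.26 (adjusted p = 0.148), and 0.69 ± 0.24 without the 3 libraries, where it was called (adjusted p = 0.0448). Descending colon minus corpus was 0.57 ± 0.26 (adjusted p = 0.135), and 0.67 ± 0.24 without them (adjusted p = 0.047).

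The start regions of the factors themselves were searched for letters that these proteins are known to bind, because Foxa1 and Foxa2 changed in the same direction in 2 comparisons and Hnf4a differed 5.22-fold between regions. RefSeq windows on GRCm38.p6, from 250 bases before to 50 after a transcript start, were found for 6 of the 9 genes (Gata5, Foxa1, Foxa2, Foxa3, Hnf4a and Klf4), 9 windows in all; Gata4, Gata6 and Klf5 were not used here. Both strands were searched for GATAA (GATA factors; in 25.4% of 32851 mouse windows of the same 300 bases) and for the FOXA letters TGTTTAC, with the variants TATTTAC and also TGTTTGC (11.2% for any of them). The other letters were CAAAGT for HNF4 (14.4% of windows), then GTTAAT for HNF1 (7.1%), then TTTATG for CDX (11.9%) and lastly CACCC for Krüppel-like factors (57.5%). Apart from the common CACCC, matches occurred in 4 of the 9 windows. The share of all windows with any of these letters was not counted, so 4 of 9 cannot be called many or few. The 4 windows are printed with the GATA, FOXA, HNF4 and HNF1 letters in capitals. A match is a description of the letters, not a site. The Foxa1 window lies at chr12:57546062-57546361 on the minus strand, with FOXA letters 141 bases before the start that overlap HNF4 letters at 136 bases. Of 3 Foxa2 windows, that of start 3 lies at chr2:148045415-148045714 on the minus strand and holds GATA letters at 182, HNF1 letters at 176 and HNF4 letters at 172 bases before the start, of which the last pair overlap.
Foxa1: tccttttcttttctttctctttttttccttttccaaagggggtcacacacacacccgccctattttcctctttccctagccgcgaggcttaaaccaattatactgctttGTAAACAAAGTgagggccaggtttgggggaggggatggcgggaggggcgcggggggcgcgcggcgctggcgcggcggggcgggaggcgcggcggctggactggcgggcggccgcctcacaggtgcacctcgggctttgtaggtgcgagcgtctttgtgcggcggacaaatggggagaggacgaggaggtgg
Foxa2: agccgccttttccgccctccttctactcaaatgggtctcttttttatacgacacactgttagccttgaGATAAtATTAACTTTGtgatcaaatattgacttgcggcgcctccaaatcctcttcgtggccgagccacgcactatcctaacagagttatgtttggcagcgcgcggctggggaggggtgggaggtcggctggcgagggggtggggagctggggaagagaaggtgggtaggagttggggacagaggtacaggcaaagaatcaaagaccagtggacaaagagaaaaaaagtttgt
The Hnf4a window at start 1, chr2:163506607-163506906 on the plus strand, has GATA letters at 51 bases before the start. That at start 2, chr2:163546905-163547204 on the plus strand, has HNF1 letters at 81 and at 74 bases.
Hnf4a start 1: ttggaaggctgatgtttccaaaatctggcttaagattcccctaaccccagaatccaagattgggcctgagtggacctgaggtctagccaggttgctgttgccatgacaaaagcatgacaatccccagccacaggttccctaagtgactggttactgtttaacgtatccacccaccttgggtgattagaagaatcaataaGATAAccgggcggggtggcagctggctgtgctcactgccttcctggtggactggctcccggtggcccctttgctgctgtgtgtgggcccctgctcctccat
Hnf4a start 2: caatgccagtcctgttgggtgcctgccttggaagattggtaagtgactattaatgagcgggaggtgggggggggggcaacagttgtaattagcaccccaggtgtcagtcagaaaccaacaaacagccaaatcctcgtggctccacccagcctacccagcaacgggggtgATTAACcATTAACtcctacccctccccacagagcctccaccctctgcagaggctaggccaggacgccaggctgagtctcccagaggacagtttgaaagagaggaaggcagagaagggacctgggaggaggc
No GATA, FOXA, HNF4, HNF1 or CDX letters were found in the windows of Gata5, Foxa3 and Klf4 or in the other Foxa2 windows, which says only that these letters are not in those stretches. CACCC, left in lower case above, occurred in the windows of Gata5, Foxa1, Foxa3, both Hnf4a starts and 2 of the 3 Foxa2 starts.

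Hnf4a was low in the corpus and even from jejunum to rectum. In the corpus Hnf4a had 11.2, 84.7 and 361.0 in germ-free mice and 44.9, 89.4 and 58.1 in conventional mice, where the 361.0 belonged to the library labelled germ-free corpus 3. In the jejunum Hnf4a had 409.8, 286.7 and 278.2 in germ-free mice and 431.3, 394.3 and 551.4 in conventional mice. Hnf4a in the descending colon had 364.1, 458.1 and 372.3 in germ-free mice and 522.3, 436.1 and 317.4 in conventional mice. Without the 361.0, no corpus signal reached the lowest signal of any other region. In the rectum Hnf4a had 392.8, 449.5 and 428.4 in germ-free mice and 601.6, 613.5 and 507.2 in conventional mice. Hnf4a in the jejunum exceeded the corpus 5.22-fold (log2 difference 2.38 ± 0.41, adjusted p = 0.000153), and 7.11-fold without the 3 libraries (2.83 ± 0.28). In the descending colon it was 5.56-fold higher than in the corpus (2.48 ± 0.41, adjusted p = 0.000216), and 7.95-fold without them (2.99 ± 0.27). Descending colon minus jejunum was 0.09 ± 0.41 (adjusted p = 0.913), and 0.16 ± 0.27 without the 3 libraries.

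Klf5 had the same order of region medians as Hnf4a, lowest in the corpus and highest in the rectum. In the corpus Klf5 had 674.7, 689.0 and 1470.8 in germ-free mice and 750.6, 582.9 and 654.5 in conventional mice, with the 1470.8 again from the library labelled germ-free corpus 3. In the jejunum Klf5 had 1713.9, 1426.3 and 1409.2 in germ-free mice and 1345.8, 1456.5 and 1826.5 in conventional mice. Jejunum and corpus did not overlap without the 1470.8. In the descending colon Klf5 had 1493.6, 1462.3 and 1436.2 in germ-free mice and 2303.6, 1454.4 and 848.3 in conventional mice, a wide spread among the conventional arrays. In the rectum Klf5 had 1747.1, 1656.4 and 1586.5 in germ-free mice and 1482.4, 1624.9 and 1972.3 in conventional mice. For Klf5 the jejunum exceeded the corpus 1.99-fold (1.00 ± 0.20, adjusted p = 0.000777; 1.12 ± 0.18 without the 3 libraries). It was also higher in the descending colon than in the corpus (0.92 ± 0.20, adjusted p = 0.00295; 1.10 ± 0.17 without them). The summed pan-epithelial markers were 6555.2 to 14148.3 in the corpus libraries apart from germ-free corpus 3, which had 33227.2, against 30506.8 to 46917.2 in the other regions. In both comparisons with the corpus 10 of 12 pan-epithelial probe sets were higher, and their part in the Hnf4a and Klf5 differences was not tested.

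Klf4 had the smallest of the called differences. In the jejunum Klf4 had 1511.3, 1496.1 and 1460.6 in germ-free mice and 1595.7, 1866.5 and 2025.3 in conventional mice. In the corpus Klf4 had 2018.0, 2518.9 and 2567.1 in germ-free mice and 2317.1, 1998.5 and 1923.5 in conventional mice. The germ-free jejunal arrays were all below the corpus arrays, and only the 2025.3 of conventional jejunum 3 lay inside the corpus range. The descending colon arrays had Klf4 signals of 1989.0, 2688.7 and 2662.6 in germ-free mice and 2155.5, 2239.4 and 2217.5 in conventional mice. In the rectum Klf4 had 2468.3, 3415.0 and 2107.3 in germ-free mice and 1479.5, 1986.9 and 2071.0 in conventional mice. Klf4 was 1.34-fold lower in the jejunum than in the corpus (-0.42 ± 0.13, adjusted p = 0.0147) and 1.40-fold higher in the descending colon than in the jejunum (0.49 ± 0.13, adjusted p = 0.0164). Without the 3 libraries these were -0.43 ± 0.13 (adjusted p = 0.015) and 0.53 ± 0.13 (adjusted p = 0.00451). Over all 9033 probe sets the median log2 difference was -0.10 for jejunum minus corpus and 0.10 for descending colon minus jejunum. With array medians equalised, which moved those medians to 0.08 and -0.06, neither Klf4 call held (-0.24, adjusted p = 0.191; 0.32, adjusted p = 0.135). The call between descending colon and jejunum was also lost without conventional jejunum 1 (adjusted p = 0.0561). A further Klf4 probe set had signals of 0.3 to 2.6 on all arrays, under the floor, and was not tested.

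**Figure D2:**
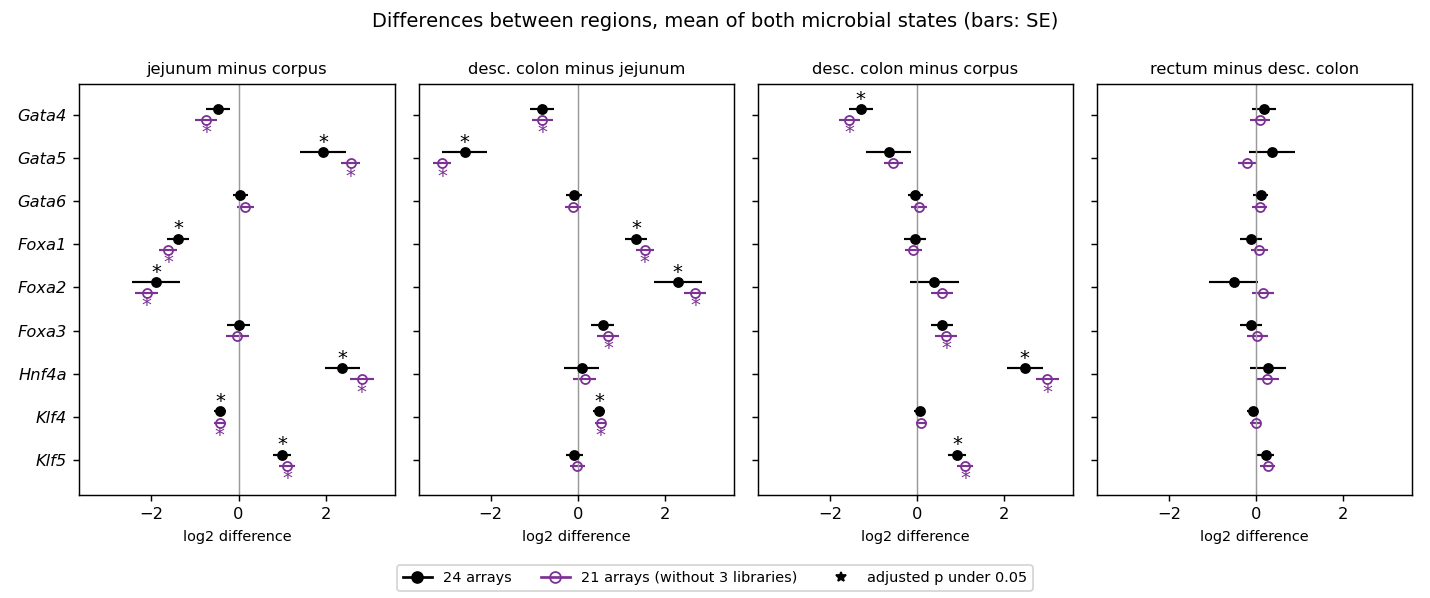
Log2 differences between regions with SE bars for the 9 factors, as means over both microbial states, for all 24 arrays (filled) and for 21 arrays without the 3 libraries (open); asterisks mark adjusted p under 0.05. Gata5, Hnf4a and Klf5 lie right of 0 and Foxa1, Foxa2 and Klf4 left of it for jejunum minus corpus, and no point for rectum minus descending colon is marked.

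Counted over the 10 tested probe sets, 6 were called for jejunum minus corpus, where 32.9% of all 9033 were called. Of these, 3 were higher (Gata5, Hnf4a, Klf5) and 3 lower (Foxa1, Foxa2, Klf4) in the jejunum, or 3 higher and 2 lower of 9 tested with array medians equalised. The median difference was -0.21 over the 10 and -0.10 over all probe sets. With all libraries, regions next to each other in the order of medians overlapped in signal for each of the 10 probe sets. For descending colon minus jejunum 4 were called against 14.4% of all, 3 higher (Foxa1, Foxa2, Klf4) and 1 lower (Gata5) in the descending colon, with medians of 0.09 and 0.10. Under equalised array medians that split was 2 higher and 2 lower, with Gata4 called in place of Klf4. For descending colon minus corpus 3 were called against 18.3% of all, Hnf4a and Klf5 higher and Gata4 lower in the descending colon. For rectum minus descending colon limma called 0 of the 10 and 0% of all, and 0 of the 10 against 202 of 9033 had an unadjusted p under 0.05. Without the 3 libraries 7 of 10 were called for jejunum minus corpus (38.6% of all), 6 for descending colon minus jejunum (24.8%) and 4 for descending colon minus corpus (29.3%). For rectum minus descending colon the share stayed at 0%.

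**Figure D3:**
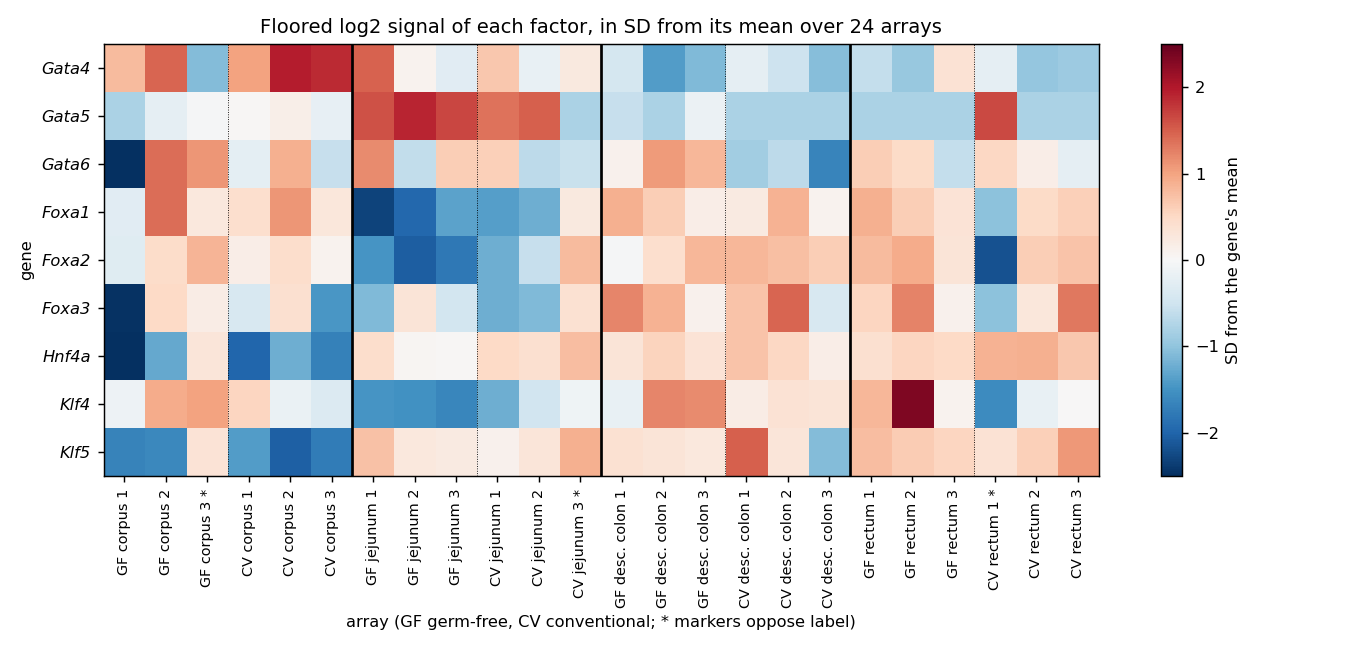
Floored log2 signal of each factor on each of the 24 arrays, in SD from that gene's mean (red above, blue below), with regions in gut order and germ-free (GF) left of conventional (CV) arrays; asterisks mark the 3 libraries whose markers opposed their labels. The columns GF corpus 3, CV jejunum 3 and CV rectum 1 differ from the other columns of their regions, as with Hnf4a at 361.0, Gata5 at 6.5 and Gata5 at 227.7.

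None of the factors was called for microbial state. By limma 0 of the 10 probe sets were called in the corpus (0% of all 9033), the jejunum (0.465%), the descending colon (0.0111%), the rectum (0.0111%), in the mean over the 4 regions (1.68%) or in the F test of whether the effect of microbial state differed between regions (0.0221%). At an unadjusted p under 0.05 there was 1 of the 10 in the corpus (817 of all 9033), 2 in the jejunum (1185 of all) and 0 in the descending colon (733 of all). There was 1 in the rectum (315 of all), 0 in the mean over regions (1632 of all) and 2 in the F test (488 of all). Without the 3 libraries limma again called 0 of the 10 in each, where the shares of all probe sets were 0.0664%, 0.565%, 0.0886%, 0.0111%, 1.46% and 0.0775%. Averaged over the 4 regions, germ-free minus conventional ran from -0.24 ± 0.39 for Foxa2 to 0.16 ± 0.12 for the main Gata6 probe set on the log2 scale, and from -0.47 ± 0.18 to 0.11 ± 0.13 for the same probe sets without the 3 libraries. In limma's F test Klf4 and Foxa2 each had an adjusted p of 0.906, and 0.960 and 0.946 without the 3 libraries. A p that misses the threshold does not show that the levels were alike.

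For 3 factors, none of them called, germ-free and conventional signals did not overlap in the jejunum. For Foxa2 all germ-free jejunal signals (24.5 to 43.5) lay under all conventional ones (55.0 to 396.1), with a log2 difference of -2.02 ± 0.78 (limma adjusted p = 0.251). Without conventional jejunum 3 and the other 2 libraries, the difference was -1.23 ± 0.38 (adjusted p = 0.163). Klf4 was ordered the same way in the jejunum, 1460.6 to 1511.3 in germ-free mice under 1595.7 to 2025.3 in conventional mice (-0.29 ± 0.18; -0.21 ± 0.19 without the 3 libraries). Gata5 was ordered the other way, 215.0 to 289.8 in germ-free mice over 6.5 to 196.6 in conventional mice, at 1.45 ± 0.74 with all arrays (adjusted p = 0.421) and 0.42 ± 0.31 without the 3 libraries. Those were the 3 of 10 members whose states did not overlap in the jejunum, where 15.6% of all probe sets did not.

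The other regions had no called difference between states either, and non-overlap there is given beside its share over all probe sets. In the descending colon the states did not overlap for 2 of 10, against 14.4% of all. Gata5 had 12.1 to 39.8 in germ-free mice and 4.6 to 10.6 in conventional mice. The main Gata6 probe set had 294.4 to 356.9 in germ-free mice and 207.4 to 252.4 in conventional mice. The Gata5 values there lay near or under the floor, and the main Gata6 probe set differed by 0.50 ± 0.25 (limma adjusted p = 0.634). The other tested Gata6 probe set overlapped between states there (0.40 ± 0.38). In the rectum Hnf4a was lower in germ-free mice (392.8 to 449.5) than in conventional mice (507.2 to 613.5) with no overlap, at -0.44 ± 0.58 under the spread shared by all arrays and -0.40 ± 0.40 without the 3 libraries. Klf4 in the rectum was 2107.3 to 3415.0 in germ-free mice and 1479.5 to 2071.0 in conventional mice (0.51 ± 0.18, limma adjusted p = 0.982), or 0.36 ± 0.19 without the 3 libraries. These were 2 of 10 against 11.6% of all probe sets. In the corpus no tested member separated the states, where 13.6% of all did, and Gata4 had -0.89 ± 0.39 (adjusted p = 0.535) with all arrays and -0.36 ± 0.36 without the 3 libraries. Hnf4a in the corpus turned direction with the library labelled germ-free corpus 3, at 0.49 ± 0.58 with all arrays and -0.54 ± 0.40 without the 3 libraries (adjusted p = 0.81 and 0.902). Foxa2 there was 0.15 ± 0.78 with all arrays and -0.20 ± 0.38 without them.

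**Figure D4:**
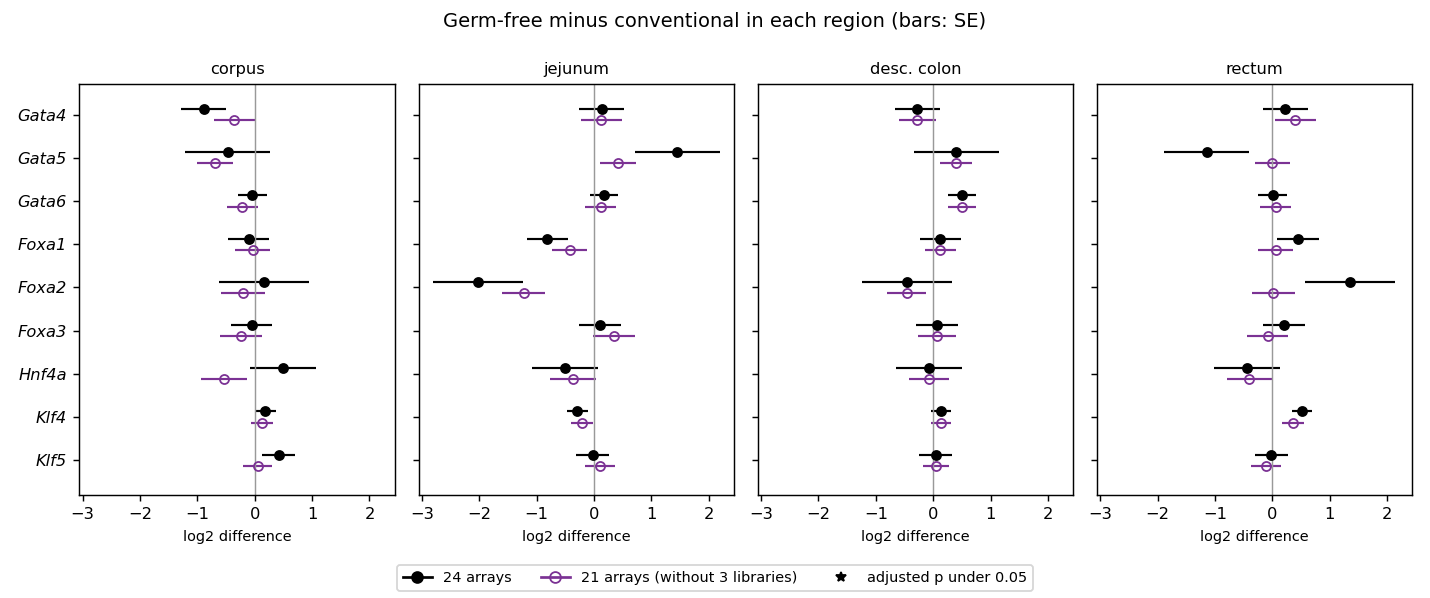
Log2 differences of germ-free minus conventional arrays with SE bars for the 9 factors in each region, for all 24 arrays (filled) and 21 arrays without the 3 libraries (open); none has an adjusted p under 0.05. Foxa2 in the jejunum is at -2.02 on all arrays and -1.23 on 21, while in the corpus Hnf4a is at 0.49 on all arrays and -0.54 on 21.

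Across the 24 arrays the factors fell into patterns that the region results already share, so their correlations are given as a description with no test. Foxa1 and Foxa2 had r = 0.850, Foxa2 and Klf4 0.846, and Hnf4a and Klf5 0.877. Gata5 ran against Foxa2 (r = -0.896) and Foxa1 (r = -0.846), and Gata4 against Hnf4a (r = -0.651). On 21 arrays these were 0.879, 0.841, 0.875, -0.897, -0.848 and -0.675, and all points share region and library. Among probe sets of other genes, those most like Gata5 were Tm4sf5 (r = 0.973), the fatty acid transporter Slc27a4 (0.958) and the fatty acid amide hydrolase Faah (0.956). Those most like Foxa2 were Wfdc2 (0.944), Anxa3 (0.938) and Ggh (0.937), and those most like Foxa1 were Fam107b (0.935), Mecom (0.927) and Tnfaip8 (0.927). Hnf4a was most like the serine protease Prss32 (0.971), Mxd1 (0.970) and Pip5k1b (0.966), and Klf5 most like Mgat3 (0.925), Litaf (0.914) and Frat2 (0.912). Gata4 was most like Myrf (0.902), Cystm1 (0.901) and Aars (0.887). Foxa3 was most like Myo10 (0.852), Map3k5 (0.829) and Ern2 (0.825), and Klf4 most like Cpq (0.871), Foxa2 itself and Anxa8 (0.841). The main Gata6 probe set had the weakest likeness, with Sepsecs at 0.701. On 21 arrays the 3 probe sets most like Gata4, Gata5, Foxa3, Hnf4a and Klf5 were of the same genes. There Foxa1 was most like Sema3c (0.938), Foxa2 most like Mfsd4a (0.954), and Klf4 most like Cpq (0.879), Itm2b (0.851) and Ankrd40 (0.848), with Foxa2 no longer among its first 3.

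Other transcription factors of endoderm and gut epithelium had 10 of 16 tested probe sets called for jejunum minus corpus, 7 higher and 3 lower. Over all probe sets 32.9% were called, and the list median was 0.29 against -0.10. Hnf4g, the close relative of Hnf4a, had signals of 55.7 to 449.2 in the jejunum and 6.1 to 37.7 in the corpus (3.39 ± 0.43, adjusted p = 1.16e-05). Hnf4g was lower in the descending colon than in the jejunum (-2.01 ± 0.43, adjusted p = 0.00577), where Hnf4a had 0.09 ± 0.41. The intestinal homeobox gene Cdx1 was higher in jejunum than corpus (3.51 ± 0.52, adjusted p = 3.93e-05) and in the descending colon than in the corpus (3.99 ± 0.52). Sox2, a factor of foregut and stomach, was lower in jejunum than corpus, at 13.2 to 31.7 against 43.9 to 840.4 (-4.26 ± 0.50, adjusted p = 6.2e-06). For descending colon minus jejunum 3 of 16 were called, against 14.4% of all. These were Hnf4g, lower, and Ehf and Gfi1, a factor of secretory cells, higher (1.05 ± 0.30 and 1.01 ± 0.32). For descending colon minus corpus 9 were called, 7 higher and 2 lower, against 18.3% of all. On 21 arrays 12, 8 and 11 of 16 were called in these 3 comparisons, against 38.6%, 24.8% and 29.3% of all. There Hnf4g had 3.95, Cdx1 4.15 and Sox2 -4.94 for jejunum minus corpus.

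**Figure D5:**
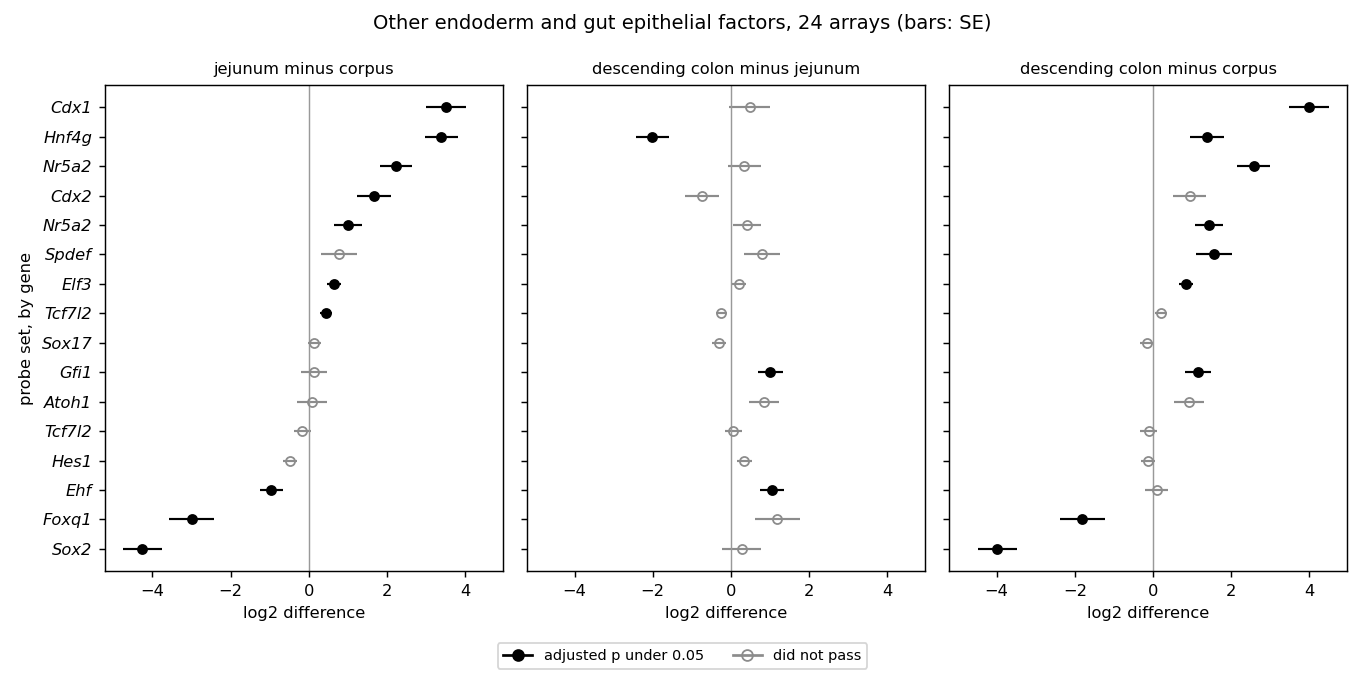
Log2 differences with SE bars for 16 probe sets of other endoderm and gut epithelial factors on 24 arrays, filled black where the adjusted p was under 0.05 and open grey otherwise. Cdx1 at 3.51 and Hnf4g at 3.39 lead the genes higher in jejunum than corpus, and Sox2 is at -4.26.

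Relatives from the same families were counted next, against 32.9% of all probe sets called for jejunum minus corpus and 14.4% for descending colon minus jejunum. Of 4 other GATA factor and cofactor probe sets 1 was called for jejunum minus corpus, Gata3 (-2.06 ± 0.51, adjusted p = 0.00395), and 1 for descending colon minus jejunum, the GATA cofactor Zfpm1 (-1.35 ± 0.42, adjusted p = 0.0359). Of 12 other forkhead probe sets 3 were lower in the jejunum than in the corpus, Foxf1, a factor of gut mesenchyme (-0.84 ± 0.22), and both Foxp1 probe sets (-1.23 ± 0.35 and -0.87 ± 0.31). Both Foxp1 probe sets were higher in the descending colon than in the jejunum (1.26 ± 0.35 and 1.05 ± 0.31). Of 11 other Krüppel-like factor probe sets 4 were called for jejunum minus corpus, with Klf6 higher (0.85 ± 0.13, adjusted p = 6.36e-05) and Klf7, 1 of 2 Klf10 and 1 of 2 Klf9 probe sets lower. The same Klf9 probe set was higher in the descending colon than in the jejunum (1.58 ± 0.34, adjusted p = 0.00553), while the other was at 0.28 ± 0.15 (adjusted p = 0.244). On 21 arrays the counts for jejunum minus corpus were 1 of 4, 3 of 12 and 4 of 11 as with all arrays, and those for descending colon minus jejunum were 1, 3 and 4.

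Known targets of GATA, HNF4 and FOXA factors had 13 of 18 tested probe sets called for jejunum minus corpus, 10 higher and 3 lower. Their list median was 1.59. Over all probe sets 32.9% were called in that comparison and 14.4% for descending colon minus jejunum. For descending colon minus corpus the share was 18.3%. Lct, which encodes lactase, was higher by 5.05 ± 0.76 on the log2 scale, the lipid transfer protein gene Mttp by 4.11 ± 0.70 and the fatty acid binding protein gene Fabp1 by 2.96 ± 0.48, while Atp4a, of the gastric proton pump, was lower (-4.72 ± 0.79). For descending colon minus jejunum 12 were called, all lower, at a list median of -2.55, among them Fabp1 (-3.33 ± 0.48), Lct (-5.10 ± 0.76) and the glucose transporter gene Slc2a2 (-2.24 ± 0.37). Over those 2 comparisons Hnf4a had 2.38 and 0.09, and Gata5 1.95 and -2.60. On 21 arrays 18 of 18 were called for jejunum minus corpus, 12 higher and 6 lower, against 38.6% of all. For descending colon minus jejunum 14 were called, 1 higher and 13 lower, against 24.8% of all. Lct, Mttp, Fabp1, Atp4a and others of this list are also enterocyte or gastric gland markers. The 3 libraries were left out on marker sums that include these genes, so the counts on 21 arrays are not independent of that choice. The part of the factors in these differences was not tested. Fabp1 was the 1 target called between states, with signals in the jejunum of 2383, 458.1 and 499.8 in germ-free mice, and 223.8, 35.6 and 1.5 in conventional mice. Its difference was 3.89 ± 0.68 (limma adjusted p = 0.0106) with all arrays and 3.19 ± 0.67 (adjusted p = 0.0349) without the 3 libraries. Of all probe sets 0.465% were called between states in the jejunum with all arrays, and 0.565% on 21 arrays. The 1.5 was from conventional jejunum 3, whose enterocyte marker sum of 668.9 stood against 24586.6 and 34427.8 in the other conventional jejunum libraries. Known targets of KLF4 and KLF5 had 13 of 18 called for jejunum minus corpus, 4 higher and 9 lower, among the lower ones the keratin genes Krt13 (-6.19 ± 0.77) and Krt4 (-4.94 ± 0.62). Another Krt13 probe set was not called (-0.44 ± 0.40, adjusted p = 0.442). Both are also squamous markers, of which 10 of 11 probe sets were lower in the jejunum, and the corpus libraries other than germ-free corpus 3 had squamous sums up to 62264.8. With all arrays leukocyte (8 probe sets) and pancreas markers (3) had 0 called in the 4 region comparisons by limma, though 2 leukocyte probe sets were higher for jejunum minus corpus and 2 pancreas probe sets for descending colon minus corpus without the 3 libraries. On all arrays enteroendocrine markers had 7, 3 and 5 of 8 called in the comparisons other than rectum minus descending colon, endothelium had 1 of 5 for jejunum minus corpus and liver 1 of 2 for descending colon against either other region. For descending colon minus jejunum 1 of 18 KLF4 and KLF5 target probe sets was called, against 14.4% of all. It was the smooth muscle gene Tagln (1.44 ± 0.31, limma adjusted p = 0.00576). On 21 arrays 12 and 3 of these 18 were called in the 2 comparisons, against 38.6% and 24.8% of all.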

How the data were processed

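The deposited values are signal intensity per probe set of Affymetrix MG-U74Av2 arrays, as the authors processed them; the signal algorithm is not given in the sources used here. The deposited arrays were already scaled, with means of 200.101 to 200.138 after trimming 2% at each end. Of 12488 probe sets, 66 controls were left out, 10855 had 1 gene in the platform annotation, 396 several and 1237 none. Signals were raised to 21.2, log2 transformed and, where above 51.5 on at least 3 arrays, tested in limma 3.58.1 (R 4.3.3, statmod 1.5.0) with 8 group means, eBayes with an intensity trend and Benjamini-Hochberg adjustment over 9033 probe sets; region differences average both microbial states, 6 arrays against 6. Between 17.55% and 28.52% of an array lay at the floor, and the number of arrays limits the precision. The fit was tested on simulated data with 200 changed probe sets, 100 by 1 and 100 by 2 on the log2 scale. For germ-free minus conventional jejunum it called 36 of the 100 changed by 1 and 76 of those changed by 2, with 4 false calls. For jejunum minus corpus it called 57 and 89, with 7 false calls. The simulated noise was normal, independent between arrays and not floored. These numbers therefore do not cover signals at the floor or deviations shared between arrays. Members and gene lists were chosen with earlier results of these data known. Named genes are all members, the genes of each list with the lowest adjusted p among those called, and the 3 probe sets most correlated with each member. Leaving out the 3 libraries whose markers opposed their labels was tried, as was leaving out 5, the others being germ-free descending colon 1 and germ-free rectum 1, which held some markers of another region (enterocyte sum 5703.6 and gastric gland sum 17241.1). Other alternatives were other normalizations, floors and filters, a replicate block and leaving out each array. Promoter windows are RefSeq's on GRCm38.p6.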

Additional observations from a re-analysis of the deposited data

Results flagged for a closer look

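Klf4 had opposite directions between states in 2 regions. In the jejunum all 3 germ-free signals (1460.6 to 1511.3) were below all 3 conventional signals (1595.7 to 2025.3), and in the rectum all 3 germ-free signals (2107.3 to 3415.0) were above all 3 conventional signals (1479.5 to 2071.0). Of all 9033 probe sets tested, the states did not overlap for 15.6% in the jejunum and 11.6% in the rectum, in either direction. Klf4 was picked out of 10 tested factor probe sets. The log2 differences were -0.29 ± 0.18 in the jejunum and 0.51 ± 0.18 in the rectum, neither of them called (limma adjusted p = 0.537 and 0.982). Without the 3 libraries whose markers opposed their labels, they were -0.21 ± 0.19 and 0.36 ± 0.19. The F test in limma of a difference between the 4 regions gave an adjusted p of 0.906, so it did not pass.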

How the results depend on the processing

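Over 11 alternative settings the number of the 9 to 12 tested factor probe sets called ranged from 5 to 7 for jejunum minus corpus, 4 to 6 for descending colon minus jejunum and 3 to 4 for descending colon minus corpus; by limma it was 0 in each for rectum minus descending colon and for all germ-free comparisons. No called difference of a factor changed sign. Among uncalled ones, 13 changed sign or reached 0 without the 3 libraries, 18 without the 5 and 8 with array medians equalised; Hnf4a for germ-free minus conventional corpus was 0.49 with all arrays and -0.54 without germ-free corpus 3. Equalising array medians ended both Klf4 calls (adjusted p = 0.191 and 0.135), and over all probe sets turned the split of jejunum minus corpus calls to 1720 higher and 1130 lower, against 1236 higher and 1734 lower, and that of descending colon minus jejunum to 386 higher and 675 lower, against 822 higher and 482 lower. A floor at the 10th percentile ended the Gata5 call for jejunum minus corpus (adjusted p = 0.0813). Gata4 for descending colon minus jejunum was called in 6 of 11 alternatives, with adjusted p from 0.0142 to 0.0944. Leaving out each array in turn kept the calls except Klf4 for descending colon minus jejunum without conventional jejunum 1. Gata4 was newly called for descending colon minus jejunum in 4 of the 24 omissions (lowest limma adjusted p = 0.0183). For jejunum minus corpus Gata4 was newly called without germ-free corpus 3 (limma adjusted p = 0.0198). Hnf4a for jejunum minus corpus ranged from 1.88 to 2.90 over these omissions. Replicate numbers were shared between groups. Deviations of same-numbered arrays of 1 state had r over 0.1 in 16 of 36 pairs of regions (range -0.497 to 0.666); in the germ-free descending colon and rectum all 3 numbers did (0.433, 0.157 and 0.455), as did number 3 in all germ-free pairs of regions. The -0.497 and the 0.666 were both from conventional jejunum with conventional rectum, groups that hold libraries whose markers opposed their labels. Germ-free corpus 3 likewise enters the germ-free pairs of number 3 that include the corpus (0.160, 0.391 and 0.319). It does not enter those of jejunum with descending colon (0.279), jejunum with rectum (0.249) or descending colon with rectum (0.455). Such libraries shift the group means that deviations are taken from. In the pairs of groups that hold them, these r cannot tell shared mice from that shift. The labels give no shared mouse, and whether numbers mark one is not settled by these values. With the replicate block 6, 5, 3 and 0 factors were called in the 4 region comparisons in the order jejunum minus corpus, descending colon minus jejunum, descending colon minus corpus and rectum minus descending colon.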
